A study of Homo sapiens and Mus musculus with 30 samples.

Results

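Ribose methylation of ribosomal RNA (rRNA) was compared between human mesoderm and endoderm made from the same 3 pluripotent cell lines. The members were the samples titled mesoderm and those titled endoderm, 6 of the 30 samples of the series, with 3 libraries each and 18 libraries in all. H9 and HUES4 are human embryonic stem cell lines and KOLF2 is an induced pluripotent line. Cells of all groups were wild type, were grown without feeder cells on Matrigel (H9 and HUES4 in mTeSR1, KOLF2 in TeSR-E8), and were directed to one or the other layer with the STEMdiff Trilineage kit. How many days the differentiation took is not given in the sources used here. Each layer of a line is 1 sample, so the 3 lines are the independent units. The study's design text calls the triplicates biological and the labels speak of triplicate libraries. Where nothing else ties libraries to separate cultures, a p-value over libraries measures the spread between libraries, which may be technical. No messenger RNA was measured, so the layer labels could not be checked against marker genes.

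Mesoderm gives rise to muscle, blood and connective tissue, and endoderm to the lining of the gut and to organs such as liver and pancreas. Ribose 2′-O-methylation of rRNA is placed by fibrillarin, which box C/D small nucleolar RNAs (snoRNAs, gene names starting with SNORD) bring to each site by base pairing. Most sites lie in functional parts of the ribosome, and some are methylated in only part of the ribosomes of a cell. In RiboMeth-seq, total RNA is broken by alkali and the ends of the fragments are counted. A methyl group protects the bond next to it, so that few read ends fall there. The score of a site is 1 minus its read ends over the weighted mean of its neighbours. A score of 1 stands for no read ends at the site and a score of 0 for no detectable protection.

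A site is named by its rRNA, its base and its number in published snoRNA tables, so that 28S Um4197 is a methylated uridine. The sequences below, as spelled out in the deposited files, surround the 11 sites that passed the test over libraries and the 3 sites with the widest spread between the lines among those that depended on the line. Each is read 5′ to 3′ with 12 nucleotides on both sides of the site, and the capital marks the methylated nucleotide. The guide snoRNA, where one is assigned in general knowledge of the field, is named with the results.
28S Um4197: cgguaacgcaggUguccuaaggcga
28S Gm4198: gguaacgcagguGuccuaaggcgag
28S Am2774: cgggccguacccAuauccgcagcag
28S Gm1509: guguuaggacccGaaagauggugaa
28S Gm4607: cauuugguguauGugcuuggcugag
28S Um4468: caagcguuggauUguucacccacua
18S Am576: aguccacuuuaaAuccuuuaacgag
18S Cm462: cggcuaccacauCcaaggaaggcag
28S Um3904: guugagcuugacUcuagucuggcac
28S Gm3723: aaugaagcgcggGuaaacggcggga
28S Um4590: ggaaccgcagguUcagacauuuggu
18S Am668: guugcugcaguuAaaaagcucguag
28S Am3846: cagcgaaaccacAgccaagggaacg
18S Cm174: cuagagcuaauaCaugccgacgggc
Um4197 and Gm4198 are adjacent nucleotides, so each lies within the window that scores the other. Other listed sites also have a known site in their windows. These are Gm1509 (Am1511), Um4468 (Gm4464 and Gm4469), Um4590 (Gm4588 and Gm4593), Cm462 (Am468), Am3846 (Cm3848) and Cm174 (Um172).

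Of 109 known sites, 106 were tested (39 of 41 in 18S, all 66 in 28S and 1 of 2 in 5.8S rRNA). 18S Um354, 18S Um1668 and 5.8S Um14 had mean scores under 0.2 and stayed out. Depth ranged from 1997206 to 40895844 read ends per endoderm library and from 7197949 to 27037973 per mesoderm library. Counting alone gave a score an error of 0.00601 at the median, whereas libraries of a sample differed by an SD of 0.0216 at the median. A library index is the short barcode that marks a library, and each of the 6 samples carried the same 3 indexes. Libraries with the same index deviated together between the layers of a line, with correlations across sites from 0.660 to 0.885. Per the file headers, all endoderm libraries carried a single library number, mesoderm of HUES4 and KOLF2 another, and mesoderm of H9 its own. If these numbers stand for library batches, batch and layer cannot be told apart. The mean score at positions that are no known site was between 0.148 and 0.175 in endoderm and between 0.167 and 0.212 in mesoderm libraries. It was higher in mesoderm in 9 of 9 index pairs, by 0.00890 to 0.0422, and its part in the results below was not tested.

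A uridine of 28S rRNA, Um4197, carried the largest difference of the 106 tested sites. Its score was 0.856 ± 0.0262 in mesoderm and 0.659 ± 0.0103 in endoderm (mean ± SD, n = 3 lines). The site is position 4227 of the 28S sequence in the files and is assigned to SNORD58, as is its neighbour Gm4198. In endoderm the scores were 0.666 in H9, 0.647 in HUES4 and 0.663 in KOLF2. In mesoderm they were 0.827 in H9, 0.865 in HUES4 and 0.877 in KOLF2. All mesoderm samples lay above all endoderm samples, and the single libraries did not overlap either, at 0.824 to 0.891 in mesoderm and 0.507 to 0.721 in endoderm. With 1 value per sample and the line as block, Um4197 rose by 0.198 ± 0.0196 (SE) and was the only call among the 106 sites (0.943%; limma, adjusted p = 0.0466). That call over 3 lines was lost when HUES4 or KOLF2 was left out, with adjusted p = 0.766 and 0.645 and differences of 0.187 and 0.190. Without H9 the difference was 0.216.

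**Figure D1:**
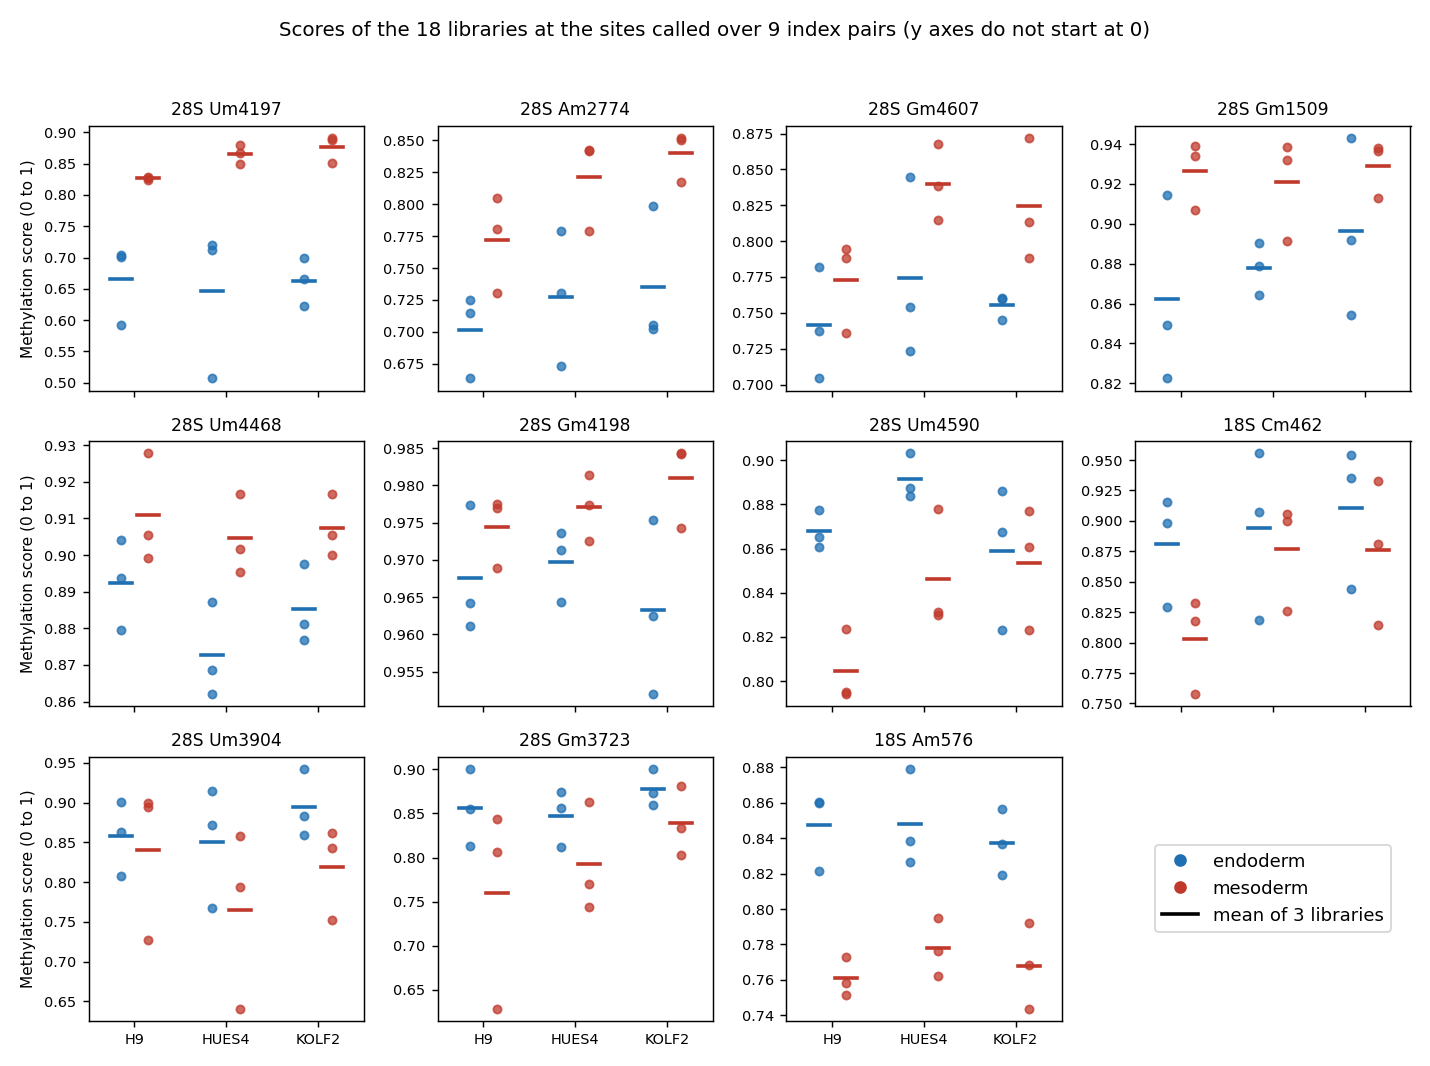
Methylation scores (y axis, 0 to 1, axes not starting at 0) of the 18 libraries at the 11 sites called over 9 index pairs, by cell line (x axis). Points are libraries, bars are the means of the 3 libraries of a sample, blue is endoderm and red is mesoderm. At 28S Um4197 and 18S Am576 no library of one layer reaches into the other.

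With the libraries paired by line and index, 11 of the 106 sites were called (10.4%), 6 higher in mesoderm (5.66%) and 5 lower (4.72%), by limma with Benjamini-Hochberg adjustment. The median difference over all tested sites was −0.000502, and 51 of the 106 sites were higher in mesoderm. Layers did not overlap between samples at 17 sites (16%) and between libraries at 2 sites (1.89%), which were Um4197 and 18S Am576. At 39 sites (36.8%) the difference had the same sign in every line.

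**Figure D2:**
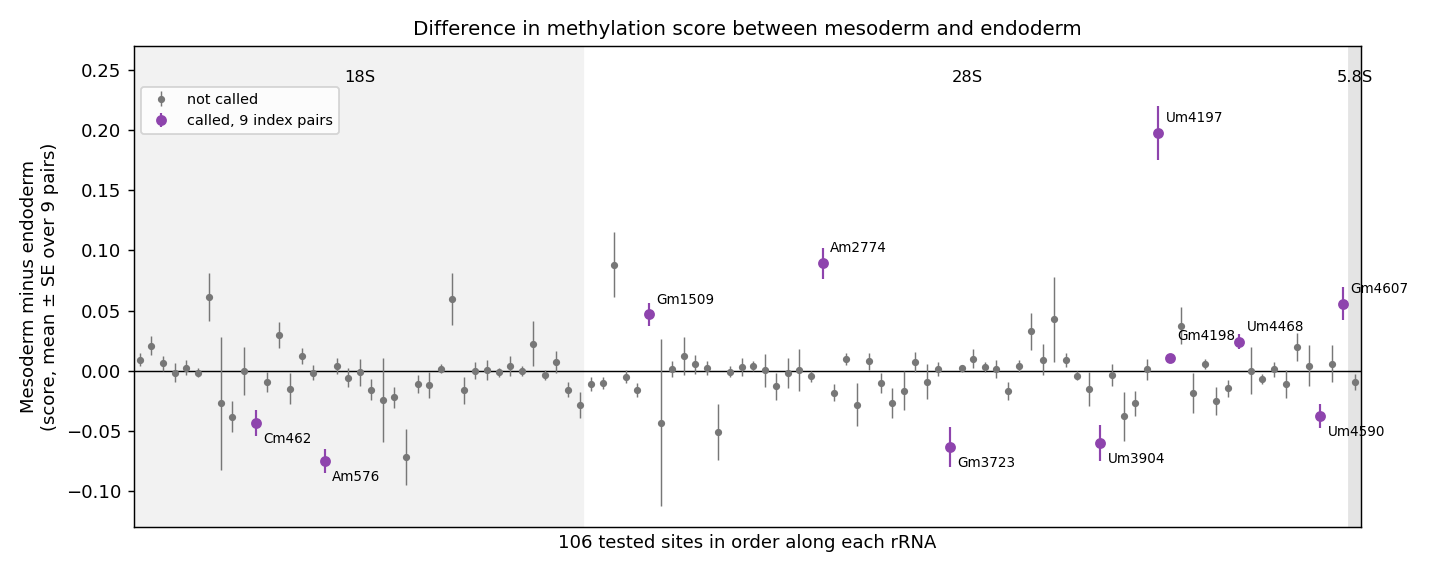
Mesoderm minus endoderm methylation score (y axis; mean ± SE over 9 index pairs) for the 106 tested sites in order along each rRNA (x axis). Purple points are the 11 sites called at an adjusted p below 0.05. 28S Um4197 stands at 0.198, above the next site, 28S Am2774, at 0.0895.

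The adenosine Am2774 of 28S rRNA, assigned to SNORD99, had the next largest difference. Endoderm scores were 0.701 in H9, 0.728 in HUES4 and 0.735 in KOLF2. Mesoderm scores were 0.772 in H9, 0.821 in HUES4 and 0.840 in KOLF2. The samples of the layers did not overlap, but their libraries did, at 0.731 to 0.852 in mesoderm and 0.664 to 0.799 in endoderm. Mesoderm was higher in 9 of 9 index pairs, by 0.0895 ± 0.0129 (adjusted p = 4.17e-04). Over the 3 lines as units the same difference had an adjusted p of 0.153 by limma.

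The adenosine Am576 of 18S rRNA, assigned to SNORD93, was the clearest site with less protection in mesoderm. Its endoderm scores were 0.847 in H9, 0.848 in HUES4 and 0.838 in KOLF2. Its mesoderm scores were 0.761 in H9, 0.778 in HUES4 and 0.768 in KOLF2. The lowest endoderm library, at 0.819, was above the highest mesoderm library, at 0.795. The score fell by 0.0754 ± 0.00988 in mesoderm, in 9 of 9 index pairs (adjusted p = 2.24e-04), and the adjusted p over 3 lines was 0.153. Am2774 and Am576 were called over index pairs under all 19 alternative settings tried for each, and Um4197 under 18 of 19, or 11 of 16 over 3 lines. The other 8 sites held less often. Gm1509 was called under 14 of 19 settings, Cm462 and Um3904 under 12, Gm4607 and Um4590 under 11, Gm3723 under 10, Gm4198 under 8, and Um4468 under 9 of 18.

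The other sites that rose in mesoderm over index pairs were all in 28S rRNA, and none of them was called over 3 lines. Gm1509, assigned to SNORD2, had scores of 0.862, 0.878 and 0.896 in endoderm and of 0.927, 0.921 and 0.929 in mesoderm of H9, HUES4 and KOLF2. The rise at Gm1509 was 0.0468 ± 0.00927 (adjusted p = 0.00627), with samples that did not overlap. 28S Am1511 lies 2 nucleotides from Gm1509, within its window, and differed by −0.299, 0.0798 and 0.0899 in H9, HUES4 and KOLF2. Whether Am1511 moved the score of Gm1509 was not tested. Gm4607, assigned to SNORD121, rose by 0.0558 ± 0.0136 (adjusted p = 0.0252), although its samples overlapped between 0.773 and 0.774. Um4468 rose by 0.0242 ± 0.00646 (adjusted p = 0.0265). Gm4198 rose by 0.0106 ± 0.00311 (adjusted p = 0.0458), between sample scores that were all at 0.963 or above. The sites assigned to SNORD58 were thus Um4197 and Gm4198, with differences of 0.198 and 0.0106.

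The other sites that fell in mesoderm over index pairs lay in 18S and 28S rRNA, and none of them was called over 3 lines. 18S Cm462, assigned to SNORD14, had scores of 0.881, 0.894 and 0.911 in endoderm and of 0.803, 0.877 and 0.876 in mesoderm. It fell by 0.0433 ± 0.0108 (adjusted p = 0.0252). 28S Um3904, assigned to SNORD52, the snoRNA that the study edited in other samples, had scores of 0.857, 0.851 and 0.895 in endoderm and of 0.840, 0.764 and 0.819 in mesoderm. Um3904 fell by 0.0600 ± 0.0151 (adjusted p = 0.0252), and H9 differed least, by −0.0175. 28S Gm3723, assigned to SNORD87, fell by 0.0635 ± 0.0164 (adjusted p = 0.0265), in 9 of 9 index pairs. 28S Um4590 fell by 0.0379 ± 0.0101 (adjusted p = 0.0265), with a difference of −0.00515 in KOLF2. Samples of the layers did not overlap at any of these 4 sites, but libraries did at all of them.

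The score counts both ends of the sequenced fragments. A 5′ end and a 3′ end report the same bond from different fragments, so both can be read apart with the same formula. At Um4197 the layers differed in the 5′ ends and did not pass the test in the 3′ ends. From 5′ ends the endoderm scores were 0.497 in H9, 0.493 in HUES4 and 0.506 in KOLF2, against mesoderm scores of 0.779, 0.828 and 0.832. From 3′ ends the endoderm scores were 0.969, 0.974 and 0.967 and the mesoderm scores 0.965, 0.957 and 0.968. The 5′ reading thus separated the layers by 0.315 ± 0.0290 (adjusted p = 7.59e-06 over index pairs and 0.0155 over 3 lines). The 3′ reading differed by −0.00659 ± 0.00490 (adjusted p = 0.477 over index pairs and 0.754 over 3 lines). The difference between the 2 readings was 0.321 ± 0.0429, with an adjusted p of 9.75e-04 over index pairs and 0.0828 over 3 lines. This comparison was chosen after the data were seen.

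**Figure D3:**
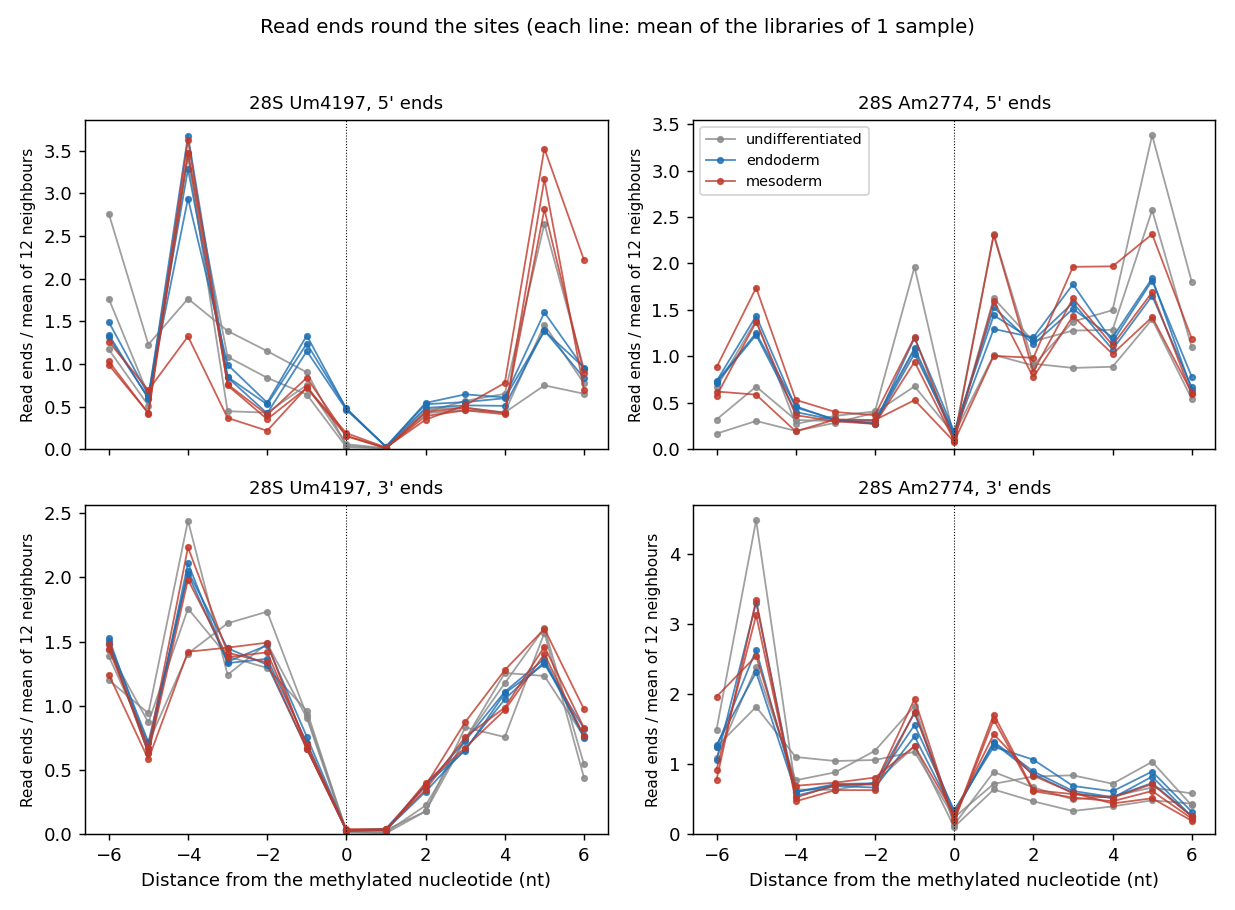
Read ends at each position over the unweighted mean of the 12 neighbours (y axis) against the distance from the methylated nucleotide in nucleotides (x axis), for 5′ ends (top) and 3′ ends (bottom) at 28S Um4197 (left) and 28S Am2774 (right). Each line is the mean of the libraries of 1 sample. At Um4197 the 5′ ends at distance 0 are at 0.462 to 0.479 in endoderm and 0.154 to 0.189 in mesoderm, while the 3′ ends are at most 0.0401 in both.

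The raw profile around Um4197 shows where those ends fell. The 5′ ends at the site itself were at 0.462 to 0.479 of the mean of the neighbours in endoderm, 0.154 to 0.189 in mesoderm and 0.0253 to 0.0603 in undifferentiated cells. The 3′ ends there were at 0.0242 to 0.0307 in endoderm, 0.0299 to 0.0401 in mesoderm and 0.0135 to 0.0306 in undifferentiated cells. A neighbour differed as well: at 5 nucleotides downstream the 5′ ends were at 1.39 to 1.61 in endoderm and 2.81 to 3.53 in mesoderm. Nearer neighbours differed too, with 5′ ends of 1.15 to 1.33 in endoderm and 0.719 to 0.840 in mesoderm at 1 nucleotide upstream, and of 0.486 to 0.544 and 0.348 to 0.437 at 2 nucleotides downstream. With a window of 2 neighbours on each side, which leaves out the position 5 nucleotides away but not these, the difference at Um4197 was 0.247 (adjusted p = 0.00188 over index pairs and 0.260 over 3 lines).

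Am2774 and Am576 differed in both readings. At Am2774 the 5′ reading was higher in mesoderm by 0.0822 ± 0.0145 (adjusted p = 0.00274) and the 3′ reading by 0.0839 ± 0.0174 (adjusted p = 0.0135). At Am576 the 5′ reading fell by 0.0922 ± 0.0106 (adjusted p = 5.02e-05) and the 3′ reading by 0.0641 ± 0.0153 (adjusted p = 0.0232). These were the 2 sites called in both readings, out of 8 called from 5′ ends (7.55%) and 9 called from 3′ ends (8.49%). Over 3 lines, 3 sites were called from 5′ ends (2.83%), Um4197, Am2774 and Am576. Over 3 lines, the 5′ readings of Am2774 and Am576 had an adjusted p of 0.0328 each and their 3′ readings of 0.312 each. Of the 11 sites called from both ends together, 7 had the same sign in both readings, against 60 of all 106. Across all 106 sites the differences from 5′ ends and from 3′ ends correlated with r = 0.152.

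SNORD52's site Um3904 went the other way from Um4197 and passed the test in the 3′ ends, not in the 5′ ends. From 3′ ends the endoderm scores were 0.784 in H9, 0.766 in HUES4 and 0.857 in KOLF2, against mesoderm scores of 0.716, 0.564 and 0.690. From 5′ ends the endoderm scores were 0.914, 0.915 and 0.927 and the mesoderm scores 0.955, 0.939 and 0.939. The 3′ reading fell by 0.146 ± 0.0262 in mesoderm (adjusted p = 0.00704), while the 5′ reading was 0.0258 higher (adjusted p = 0.0533). The readings differed over index pairs (adjusted p = 0.00359) and not at 0.05 over 3 lines (adjusted p = 0.0828). In undifferentiated cells, whose libraries carried other indexes in HUES4 and KOLF2, the readings of this site stood at 0.980, 0.988 and 0.990 from 5′ ends and 0.699, 0.113 and 0.323 from 3′ ends in H9, HUES4 and KOLF2. At Gm3723 the 3′ reading fell by 0.101 ± 0.0219 (adjusted p = 0.0141) and the 5′ reading differed by 5.97e-05 (adjusted p = 0.995). Readings differed at 5 of the 106 sites over index pairs (4.72%), these 3 with 18S Cm174 and 18S Um1442. Over 3 lines limma called none, with 13 sites at an unadjusted p below 0.05.

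**Figure D4:**
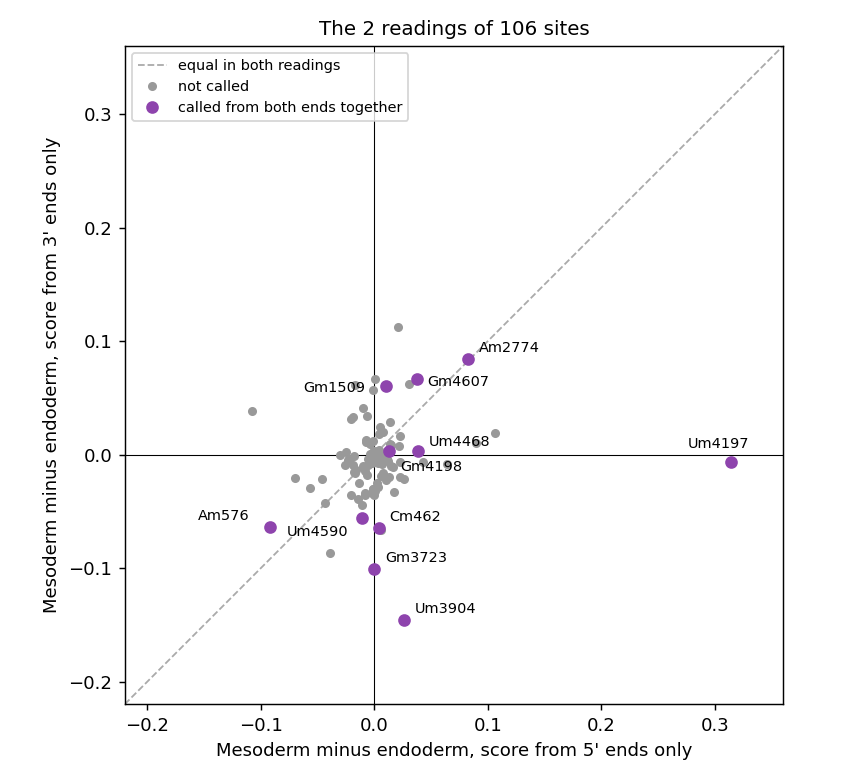
Mesoderm minus endoderm score from 5′ ends only (x axis) against that from 3′ ends only (y axis) for the 106 tested sites, each a mean over 9 index pairs. Purple points are the 11 sites called from both ends together. 28S Am2774 lies on the dashed line of equal readings, 28S Um4197 at 0.315 and −0.00659 and 28S Um3904 at 0.0258 and −0.146.

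The lines were not alike in the rest of the profile. Tested on its own libraries, H9 gave 13 calls (12.3%), HUES4 4 (3.77%) and KOLF2 9 (8.49%), and each such test compares 1 sample with 1 sample. Um4197 and Am576 were called in all 3 lines. Am2774 and Um3904 were called in HUES4 and KOLF2, and Am2774 in H9 had a difference of 0.0705 (adjusted p = 0.0775). Across the 106 sites, which share their libraries, the differences in HUES4 and KOLF2 correlated with r = 0.766 (0.687 without Um4197). H9 had r = 0.111 with HUES4 (−0.0428 without Um4197) and −0.0726 with KOLF2 (−0.242 without Um4197). 28S Am1511, which counts in these, was at −0.299 in H9 (SD 0.335 over its index pairs), 0.0798 in HUES4 and 0.0899 in KOLF2. No correlation was computed without Am1511. Differences had the same sign at 73 sites between HUES4 and KOLF2, at 56 between H9 and HUES4 and at 55 between H9 and KOLF2. Mesoderm of HUES4 and KOLF2 shared a library number and H9 did not, so line and library number cannot be told apart here.

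**Figure D5:**
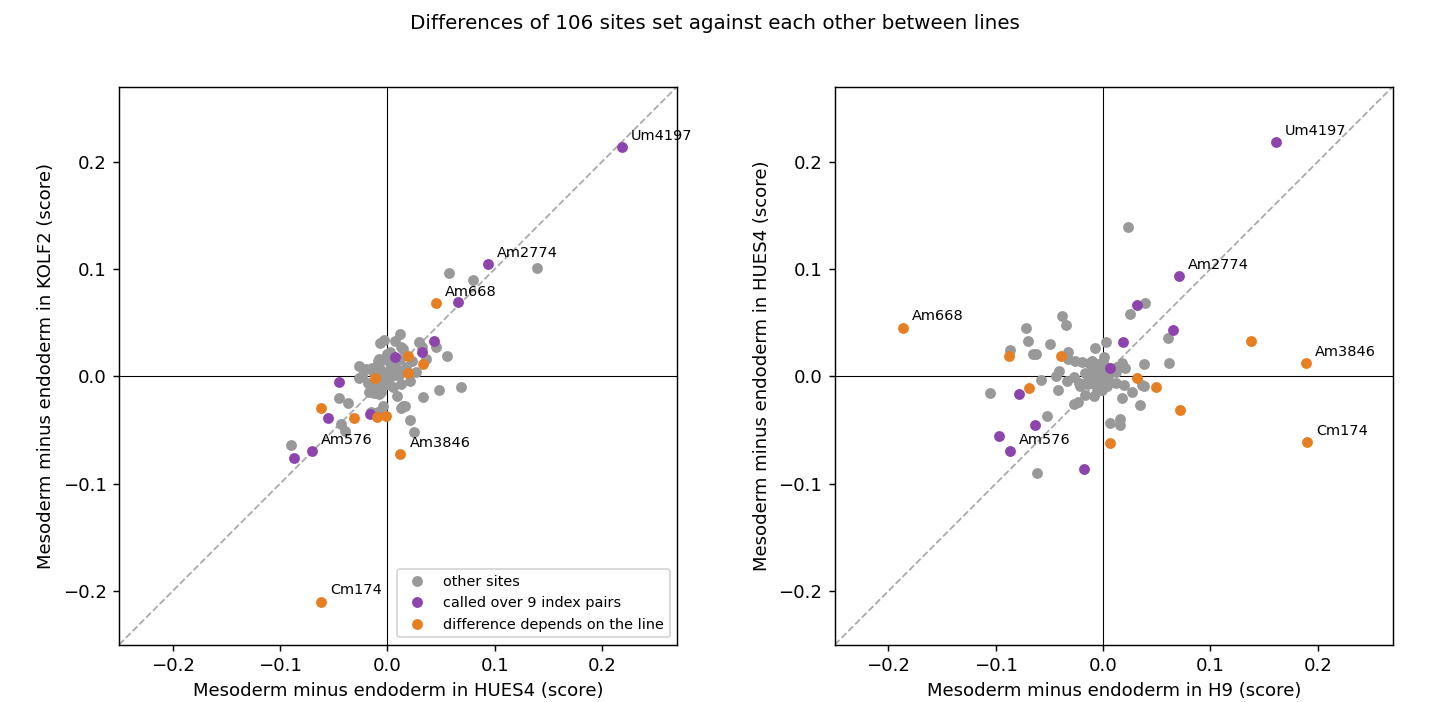
Mesoderm minus endoderm score in KOLF2 against HUES4 (left) and in HUES4 against H9 (right) for the 106 tested sites. 28S Am1511, at −0.299 in H9, lies outside the axes of the right panel but is counted in its r. Purple points were called over 9 index pairs and orange points had a difference that depended on the line. The left cloud follows the dashed line of equality (r = 0.766) and the right cloud does not (r = 0.111).

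Leaving H9 out raised the number of calls. HUES4 and KOLF2 alone gave 20 calls over index pairs (18.9%), 11 higher and 9 lower in mesoderm, of which 9 were among the 11 calls with H9. With the sample as unit they gave 18 calls (17%), 10 higher and 8 lower, and 7 of these were among the 11. With so few samples the spread at a site is poorly estimated, and these calls lean on the variance shared over all sites. Without H9, all mesoderm carried one library number and all endoderm another, so layer and library number cannot be told apart. Without the 2 KOLF2 index pairs whose endoderm libraries were shallow, 5 sites were called, all among the 11. The test of the line itself, on the 9 paired differences, called 11 sites (10.4%), none of them among the 11 sites called over index pairs.

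The smallest p for the line was at 18S Am668, assigned to SNORD36. The mesoderm score stood at 0.658 in H9, 0.844 in HUES4 and 0.865 in KOLF2, against 0.844, 0.799 and 0.797 in endoderm. Mesoderm was thus lower by 0.187 in H9 and higher by 0.0454 and 0.0683 in HUES4 and KOLF2 (adjusted p = 0.00111 for the line). 28S Am3846 was higher in mesoderm of H9 by 0.189, with differences of 0.0122 in HUES4 and −0.0728 in KOLF2 (adjusted p = 0.00545). 18S Cm174, assigned to SNORD45, had mesoderm scores of 0.705, 0.370 and 0.352 and endoderm scores of 0.515, 0.432 and 0.562 in H9, HUES4 and KOLF2. Its difference ran from 0.190 in H9 to −0.210 in KOLF2 (adjusted p = 0.0319). Over the lines, which differed in sign, the mean differences at these sites were −0.0243, 0.0429 and −0.0272.

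Over all 106 tested sites 10.4% were called, and shares near that say nothing of a group. Grouped by rRNA, 18S held 0 sites that rose and 2 that fell over index pairs, with a median difference of −0.00164 over 39 tested sites. 28S rRNA held 6 that rose and 3 that fell, with a median of 0.000884 over 66 sites. The stretch of 28S rRNA from Gm4166 to Gm4607 held 5 of the 11 calls among 18 sites, 4 higher and 1 lower. In the stretch of 18S rRNA from Gm601 to Gm867 the mean difference was below 0 at all 8 tested sites, from −0.0717 to −0.00136, where 51 of all 106 sites were above 0, and no site was called. Only 3 of these 8 sites had 1 sign in all lines, and at Am668 and Gm601 the mean was below 0 through H9 alone. By base, 1 of 33 adenosines rose and 1 fell, 2 of 18 uridines rose and 2 fell, 3 of 32 guanosines rose and 1 fell, and 1 of 23 cytidines fell. By level, 3 of 19 sites with a mean score below 0.8 were called, 7 of 72 sites from 0.8 to below 0.95, and 1 of 15 sites at 0.95 or above. The median size of the difference was 0.0382, 0.0101 and 0.00294 in these classes.

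Among snoRNAs assigned to more than one site, SNORD58 had a call over index pairs at each of its sites. At Gm4198 that call was lost under most settings (kept under 8 of 19). Its 5′ reading rose by 0.0131 ± 0.00280 (adjusted p = 0.0114 over index pairs and 0.295 over 3 lines), and its 3′ reading differed by 0.00301 ± 0.00678 (adjusted p = 0.845). The neighbours of Um4197 whose 5′ ends differed between the layers also lie in the window of Gm4198. Their part in the rise at Gm4198 was not tested. The sites of SNORD68, 18S Um428 and 28S Am2388, had differences of −0.0382 ± 0.0129 (adjusted p = 0.0812) and −0.0131 ± 0.0111 (adjusted p = 0.530). SNORD36, SNORD32, SNORD80, SNORD24, SNORD45 and SNORD50 had no site called over index pairs.

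Some differences as large as those of the calls had larger standard errors and were not called. 28S Gm1303 was higher in mesoderm by 0.0880 ± 0.0271 (adjusted p = 0.0571), with sample scores of 0.551, 0.678 and 0.672 in mesoderm and 0.528, 0.539 and 0.570 in endoderm. 18S Cm797 had a difference of −0.0717 ± 0.0235 (adjusted p = 0.0714), 18S Um172 of 0.0610 ± 0.0199 (adjusted p = 0.0714) and 18S Cm1272 of 0.0597 ± 0.0217 (adjusted p = 0.104). A list of 19 sites, chosen with earlier results of these data known, held 5 of the calls (Um4197, Am2774, Gm1509, Um3904 and Am576). Of its other members, 12 were tested without a call, with differences from −0.0717 at Cm797 to 0.0597 at Cm1272. The remaining 2 were under the minimum. 5.8S Um14 was listed at 0.317, 0 and 0.0622 in mesoderm and 0.0433, 0.0284 and 0 in endoderm of H9, HUES4 and KOLF2. 18S Um354 was at 0.123 in H9 mesoderm and at 0 in the other 5 samples.

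Set beside other samples of the series, the layers lay on one side of the undifferentiated cells at some sites and on either side at others. Undifferentiated cells are given without a test: in HUES4 and KOLF2 their libraries shared no index with the layers, so that index and differentiation cannot be told apart there, and in H9 only some were shared. Um4197 was at 0.961 in H9, 0.975 in HUES4 and 0.953 in KOLF2 before differentiation and at 0.933 in early neural precursors made from H9. The order at Um4197 was the same in each line, with undifferentiated cells highest, mesoderm next and endoderm lowest. Over the undifferentiated H9 libraries with the same indexes as the layers, Um4197 was at 0.964 ± 0.00622 (SD). Gm1509 had the same order, with undifferentiated scores of 0.945, 0.945 and 0.962. Am2774 followed it as well, with undifferentiated scores of 0.804, 0.873 and 0.890. The undifferentiated H9 scores of Gm1509, Am2774 and Am576 given here are over all its libraries, including those with other indexes than the layers. Am576 had undifferentiated scores of 0.735, 0.876 and 0.733, which lay below both layers in H9 and KOLF2 and above both in HUES4, and stood at 0.299 ± 0.139 (SD, n = 3 libraries) in early neural precursors. At Um3904 undifferentiated H9 was at 0.825 over all its libraries and at 0.943 ± 0.0538 (SD) over those that shared the indexes of the differentiated cells.

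The sites whose scores ran most like those of Um4197 over the 6 samples, by Pearson's r, were Am2774 (0.935), Am4560 (0.920), Gm4198 (0.912), Gm1509 (0.902) and Um4468 (0.891), all in 28S rRNA. These values follow from the layers to a large part and are a description. Am4560, assigned to SNORD119, was itself uncalled, with scores of 0.813, 0.818 and 0.824 in mesoderm and 0.795, 0.805 and 0.796 in endoderm.

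Positions that are no known site show how often the score itself differed where no methyl group is catalogued. Of 2514 such positions with a mean score of at least 0.2, 98 were called over 3 lines (3.9%), 75 higher (2.98%) and 23 lower (0.915%) in mesoderm. The median size of their difference was 0.0522, against 0.0101 at the known sites, and their median difference was 0.0261, against −0.000502. At 148 of the 2514 positions the difference, in either direction, was at least as large as that of Um4197, and 88 of these were called. The minimum was on the mean of both layers, so some of the 2514 positions were kept only through the layer where they were high. The counts and tests outside the catalogue are thus a description. The largest called difference was at position 3214 of 28S rRNA, with 0.609 in mesoderm and 0.00417 in endoderm. Position 583 of 28S rRNA had 0.499 in mesoderm and 0 in endoderm, and position 3103 had 0.189 in mesoderm and 0.670 in endoderm. At each of these positions the lower layer was under the minimum of 0.2, so each was kept only through the other layer. Of 313 tested positions within 6 nucleotides of a known site, 5 were called.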

How the data were processed

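Per the labels' protocols, total RNA was degraded in alkali, short gel-purified fragments were joined to linkers, and sequencing was done on the Ion Proton. Which aligner and counter were used is not given in the sources used here. For each library the authors deposited unscaled raw counts of 5′ and 3′ read ends along the rRNAs. They also deposited a methylation score as a fraction from 0 to 1, called a percentage per the file headers. It was recomputed from the counts as 1 minus the read ends over the weighted mean of 6 neighbours on each side (weights 1 to 0.5), negatives set to 0, and differed by at most 5.00e-13 over 232842 values. The files spell out 18S (1869 nucleotides), 28S (5069) and 5.8S rRNA (154). No genome build is involved, and positions count from 1 at each 5′ end.

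A catalogue of 109 sites with guides was written from general knowledge and placed on these sequences by base and score. Sites of 18S and 5.8S rRNA kept their numbers, and those of 28S rRNA moved by 9 to 30 nucleotides. Placing required the right base and favoured high scores, so neither a matching base nor a high score is a check of the placement. Sites with a mean score of at least 0.2 and neighbours averaging at least 50 read ends in every library were tested, and the lowest such average was 157. Tests used limma 3.58.1, run in R 4.3.3 (trended prior, Benjamini-Hochberg at 0.05 over all tested sites): over 3 lines with sample means and the line as block, over 9 index pairs with line and index as block, within each line, and for dependence on the line by a moderated F test on paired differences. edgeR 4.0.16 on read-end counts was an alternative. The scripts were tested on simulated data.

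The main test was the one over 3 lines. The pairing by index comes from the file headers: deviations of same-index libraries from their sample means correlated in 9 of 9 cases (median r = 0.780). Different indexes gave −0.708 to −0.0237, but the centring forces these negative and they add no support. Named sites were those called over 3 lines, the 10 largest differences with one sign in all lines, the 10 largest called over index pairs, up to 8 with the smallest p for the line, the sites most like Um4197 and a list of 19 sites. Gm4198, the smallest call, 18S Um1442 and the positions outside the catalogue were named after their values were seen. The members and lists were chosen with earlier results of these data known. Counting errors cover counting only, since read ends carry no molecular identifiers.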

Additional observations from a re-analysis of the deposited data

Results flagged for a closer look

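The difference between mesoderm and endoderm depended on the cell line at 11 sites by a moderated F test on the 9 paired differences (limma, adjusted over 106 sites). Differences below are mesoderm minus endoderm. The adjusted p was 0.00111 at 18S Am668, 0.00545 at 28S Am3846 and 0.0319 at 18S Cm174, whose values by line are given above. At 28S Gm3606 (adjusted p = 0.00832) the differences were −0.0878 in H9, 0.0190 in HUES4 and 0.0186 in KOLF2. At 18S Gm601 (adjusted p = 0.0319) they were −0.0396, 0.0192 and 0.00291, and at 18S Um172 (adjusted p = 0.0352) 0.138, 0.0331 and 0.0120. 18S Um172 and 18S Cm174 lie 2 nucleotides apart, so each lies within the window that scores the other. 18S Um1804, 28S Cm2352 and 28S Cm2409 had an adjusted p of 0.0352 each. Their differences in H9 were 0.00604, 0.0493 and 0.0718, those in HUES4 −0.0617, −0.00997 and −0.0312, and those in KOLF2 −0.0298, −0.0378 and −0.0387. 28S Cm4032 (adjusted p = 0.0452) had −0.0689, −0.0112 and −0.00163, and 28S Um2402 (adjusted p = 0.0460) had 0.0314, −0.00115 and −0.0366. H9 had the highest or the lowest difference of the lines at each of the 11 sites. Without H9 limma called 0 sites, with 10 at an unadjusted p below 0.05, and H9 mesoderm also carried its own library number.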

How the results depend on the processing

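Over 3 lines the 1 call became 0 with 2 neighbours on each side (13 sites at an unadjusted p below 0.05), 3′ ends only (14) or no minimum on the score (12). It became 3 with 5′ ends only, a prior without trend, or the 18 libraries as units. It was 2 with no replicate block, and leaving out a line gave 0 to 18. Over 9 index pairs the 11 calls became 3 with no replicate block by index, 18 after division by the library median and 5 without the shallow KOLF2 pairs (both chosen after seeing the data), 4 to 20 without a line and 3 to 5 without an index. Of the 11 calls, edgeR made 11 among its 12. Within H9 the 13 calls became 1 with no replicate block, 8 with 2 neighbours, and 0 to 21 without an index. Within HUES4 the 4 calls became 0 with no replicate block (6 unadjusted), 12 after upper-quartile scaling, 23 with 2 neighbours, and 5 to 25 without an index. Within KOLF2 the 9 calls became 1 with no replicate block, 18 after upper-quartile scaling, 22 with 2 neighbours, and 0 to 16 without an index. Outside the catalogue a minimum score of 0.5 left 332 positions and 21 calls. The 11 line-dependent sites became 0 to 11 without a line and 1 without the shallow pairs. Among calls, the sign turned at Um4197 with 3′ ends only (−0.00659), and at Gm3723 (5.97e-05), Um3904 (0.0258) and Cm462 (0.00376) with 5′ ends only. Of 73 turned values over 17 sites, the other 68 belong to differences that were not called. Without H9 they were 0.0568 at Am668, 0.0173 at Gm436, 0.0111 at Gm601, −0.0303 at Am3846, −0.0239 at Cm2352, 0.0188 at Gm3606, 0.00699 at Gm4340 and −0.00844 at Gm4593. Without HUES4 Gm4588 was at −0.00893, and without KOLF2 Cm174, Gm436 and Gm4588 were at 0.0642, 0.00639 and −0.00983. Leaving out each index in turn gave −0.0624 to 0.00169 at Cm174, −0.00257 to 0.00521 at Cm2352, −0.00573 to 0.00894 at Gm4588, −0.0102 to 0.0110 at Gm436 and −0.00172 to 0.0117 at Gm4593. With 5′ ends only they were −0.0174 at Cm1272, −0.00986 at Gm1447, 0.0105 at Gm601, −0.00649 at Am4560, 0.00239 at Gm3606 and 0.00612 at Gm4340, and with 3′ ends only 0.0380 at Cm174 and −0.00409 at Cm2352. With 2 neighbours they were 0.0394 at Gm436, −0.0364 at Cm2352 and −0.0167 at Gm4588. At Gm436 the arcsine scale gave 0.00185, median scaling 1.12e-04 and upper-quartile scaling 9.12e-04, and the log2 ratio at Gm601 was 2.63e-04. Without the shallow pairs they were 0.00238 at Am668, 0.0184 at Cm174, 0.00300 at Gm436, and −0.00955 and −0.00917 at Gm4588. The cause was not tested. Of the other single-site values, 954 kept their direction and stayed called or uncalled as before, 76 lost a call and 36 gained one. The 954 include sites that were not called in the main test either. Depth is lowest in KOLF2 endoderm, where counting errors reach 0.0173.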
